A study of Mus musculus with 8 samples.

Results

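STHdh striatal cells are a mouse line of conditionally immortalized neuronal progenitors, made from the striatum at embryonic day 14 and carried by a temperature-sensitive large T antigen of SV40, a viral protein that binds the Rb and p53 proteins and keeps cells dividing. The wild-type form of the line, with an unexpanded huntingtin gene, was used here. The described samples were 4 sets of these cells that received the empty expression plasmid pcDNA3.1 with PolyJet transfection reagent and were harvested 2 days later, and they are called mock replicates 1 to 4 below. They were 4 of the 8 samples of the series, all of those given the empty plasmid. The other 4 received the same plasmid with Bcl11b, a zinc finger factor of the striatum, and entered no step. The labels call the control cells wild-type and name pcDNA3.1 in the sample titles, and all groups shared the line, the serum-containing medium, the G418 selection and the transfection. All samples came from this 1 line, a dividing culture and not striatal tissue. RNA of each sample was hybridized to an Illumina MouseRef-8 v2 bead array, on which every probe is a 50-base oligonucleotide read as 1 signal.

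A probe was called detected where its detection p-value, which compares its signal with those of that array's negative control beads, was under 0.01. On all 4 mock arrays 9656 of 25697 probes were detected (37.6%), and they stood for 7327 of 18120 gene symbols (40.4%), counting a gene when at least 1 of its probes passed. A further 1058 genes passed on some arrays and 9735 (53.7%) on none. These shares of 37.6% and 40.4% are the background against which each list of genes is set below. Signals were quantile-normalized over the 4 arrays and are given on the log2 scale as the mean ± SD over 4 arrays, with n = 4, or as 4 values in the order of mock replicates 1 to 4. Detected probes ran from 6.74 to 14.72 with a median of 9.93. A signal depends on the probe as well as on the RNA, so an order of signals describes brightness and not which gene had more mRNA, and a gene without detection did not pass the limit on any of its probes. The samples are separate transfections of 1 line, and each SD measures the spread between these, limited by 4 arrays. With 1 group there was no contrast, and no test was made.

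Medium spiny neurons, the GABAergic projection cells of the striatum, arise in the lateral ganglionic eminence of the embryonic forebrain. Their precursors pass through a stage with the homeodomain factors Dlx1 and Dlx2, then switch on factors such as Ebf1, Foxp1 and Bcl11b, and mature cells are known by dopamine and adenosine receptors, the phosphoprotein DARPP-32 and a set of signalling enzymes for cyclic nucleotides. Fibroblast-like cells are known by fibrillar collagens, their crosslinking enzymes and the Twist, Snail and Zeb factors. The marker lists for these and for other cells of brain and culture were compared with the detected genes.

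Detection was first read on genes of known distribution. Of 1207 genes for olfactory and vomeronasal receptors, which serve smell, 1 was detected on all 4 arrays (0.0829%), Olfr536 at 7.15, and 9 on some. Of 29 genes of distant tissues, such as albumin of the liver and rhodopsin of the eye, only Krt10 (10.22 ± 0.63), a skin keratin, was detected (3.45%). Of 16 genes used as references in most cells, 13 were detected (81.2%). Pgk1 of glycolysis and Polr2a of RNA polymerase II were detected on none of the arrays, so that a gene which dividing cells use can be missed by its probe. Of 4909 genes with several probes, 1592 (32.4%) had some probes detected on all 4 arrays and others not.

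**Figure D1:**
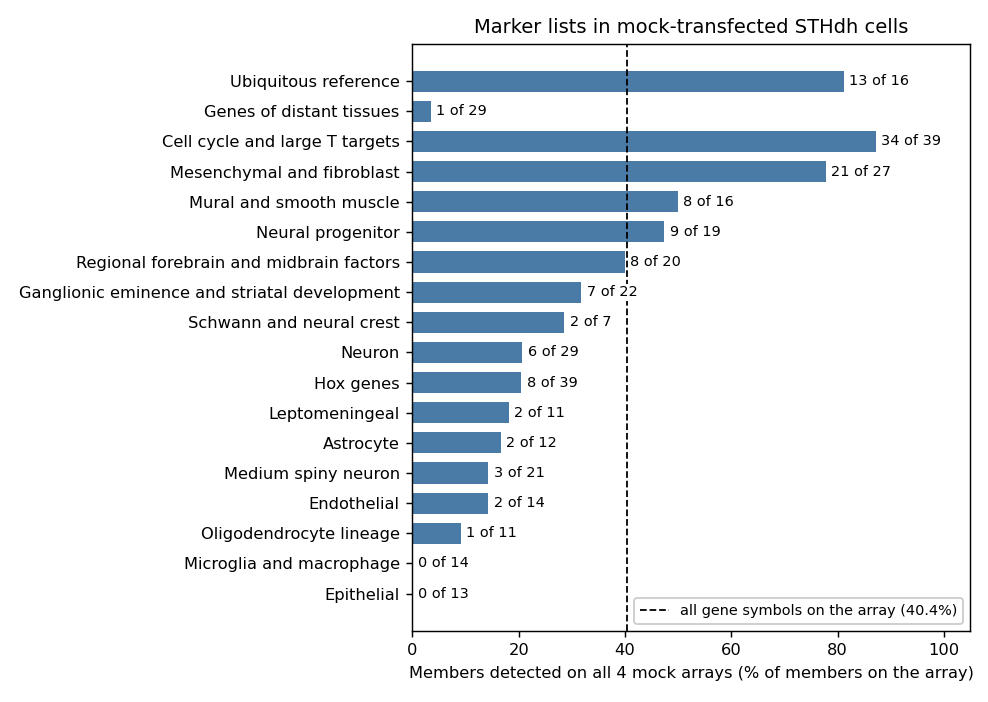
Share of each marker list detected on all 4 mock arrays, in percent of the members found on the array, with the counts beside the bars and the share of all gene symbols as a dashed line (40.4%). Cell cycle, mesenchymal and reference genes lie far to the right of the line, while neuronal, medium spiny neuron, glial, endothelial and epithelial markers lie to its left.

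The brightest probes belonged to genes of protein synthesis and the cytoskeleton. The brightest was Tuba1b, an alpha tubulin, at 14.72 ± 0.06. It was followed by the ribosomal protein gene Rplp1 at 14.58 ± 0.062 and the elongation factor gene Eef1a1 at 14.57 ± 0.035. Further genes among the 25 brightest probes included the ubiquitin gene Ubb, Actb of cytoplasmic actin, the ribosomal genes Rpl41, Rpl9, Rps2, Rps4x and Rps20, the intermediate filament gene Vim, a second probe of Eef1a1, the ferritin gene Fth1, Ctgf (now Ccn2), Atp5b of ATP synthase, Eef1g, the chaperone genes Hspa8 and Cct6a, a probe listed as 0610041G09Rik that the RefSeq table places at Acta2, the glycolytic genes Gapdh, Eno1 and Pkm, Pttg1ip, and EG668668, a predicted gene. Their means ran from 14.34 to 14.72. Of the 100 brightest probes, 21 carried the symbols of ribosomal proteins, 10 those of the cytoskeleton, 8 of translation factors, 7 of chaperones, 5 of glycolysis and 4 of annexins, galectins and S100 proteins.

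Ctgf, which encodes a secreted matrix-associated protein, gave signals of 14.56, 14.37, 14.23 and 14.56. The receptors F2r (14.17), Axl (14.01) and Il1rl1 (14.15), the last a receptor of the interleukin 1 family and chosen after its value was seen, were also among the 100 brightest.

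Few markers of mature striatal neurons were detected. Of the medium spiny neuron markers, 3 of 21 (14.3%) were detected on all 4 arrays, below the 40.4% of all genes. They were Pde1b, a calcium-dependent cyclic nucleotide phosphodiesterase, Foxp1, a forkhead factor, and Gng7, the G protein gamma subunit of the Golf complex.

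Pde1b gave 10.67, 10.05, 10.81 and 10.81, with mock replicate 2 the lowest. Foxp1 gave 9.19, 10.07, 9.39 and 9.84, a spread of 0.88 between the highest and the lowest array. Gng7 gave 8.14, 8.33, 8.65 and 8.46 by 1 of its 3 probes, and the other 2 did not pass on all arrays.

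Pde10a, the phosphodiesterase that marks medium spiny neurons, passed on mock replicates 2, 3 and 4 and missed the limit on replicate 1, where its p-value was 0.015. The other 17 markers were detected on none of the arrays. Among them were Ppp1r1b, the DARPP-32 gene, with 3 probes, the dopamine receptors Drd1 and Drd2, the adenosine receptor Adora2a, the peptide genes Tac1 and Pdyn, the regulator Rgs9, the adenylyl cyclase Adcy5, the Golf alpha subunit Gnal, the phosphatase Ptpn5, the cannabinoid receptor Cnr1, the retinoic acid receptor Rarb and Bcl11b itself.

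The undetected markers were not all equally dim. The signals of Rgs9 and Adora2a were at the floor of the scale on all 4 arrays, with p-values from 0.419 to 0.867. The brightest probe of Ppp1r1b gave 5.86, 5.58, 6.18 and 6.17, with p-values of 0.0652, 0.0689, 0.0313 and 0.0163. Drd2 gave 6.17, 6.50, 6.02 and 6.32 with p-values of 0.0439, 0.0113, 0.0414 and 0.0125, and it was the one dopamine receptor under 0.05 on all 4 arrays. At that wider limit 6 of 1207 receptors of smell passed, beside 5 of 21 medium spiny neuron markers (23.8%) and 8086 of 18120 gene symbols.

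In a set of 10 genes with striatal expression that the study had examined by PCR, 4 of 10 (40%) were detected. Ngef, a guanine exchange factor of neurons, was at 9.86 ± 0.14 with signals of 9.91, 9.85, 9.68 and 10.01, and Baiap2, a scaffold of the actin cytoskeleton, was at 7.59 ± 0.39 by 1 of 2 probes. Foxp1 and Gng7 were the other 2. Dgke, a diacylglycerol kinase, passed on mock replicate 2 alone, and Ppp1r1b, Rgs9, Cpne5, Adcy5 and Bcl11b passed on none. By standard PCR the study reported that STHdh cells express every gene of this set, including those that passed on none of the arrays here. It also reported Present calls on its arrays for most of the striatal-enriched genes it had listed, without giving the limit used for these calls. For Bcl11b, the study stated a low level of expression in cells without added Bcl11b and found the protein bound to DNA in them. Bead arrays and PCR differ in sensitivity, and the limit of the array probes was not tested here.

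Some factors of the embryonic forebrain were detected. Of the list for the ganglionic eminence and striatal development, 7 of 22 (31.8%) were detected. Dlx1 gave 10.23, 10.33, 10.36 and 10.44 and Dlx2 10.44, 10.24, 10.21 and 10.62, and both were detected on every array. These neighbouring genes specify GABAergic neurons of the ventral forebrain.

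Meis1, a homeodomain factor of the striatal primordium, was at 9.41 ± 0.083, and Ebf1, which acts in the striatal direct pathway, at 8.80 ± 0.17. Sp8, a zinc finger factor of the eminences, was at 8.18 ± 0.19, and Zfp521 at 7.77 ± 0.11 by 1 of 2 probes. Other genes at either side of them in this lineage were not detected on any array. These included Gsx1 and Gsx2 of the dividing precursors, Dlx5, Isl1, Ikzf1, Ikzf2, Zfp503, Foxp2, Six3, Sp9 and Rxrg of later cells, and Nkx2-1, Lhx6 and Lhx8 of the medial eminence.

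Factors of other parts of the body axis were present beside these. Of 20 regional factors of forebrain and midbrain, 8 were detected (40%), a share close to that of all genes. Nr2f1, the COUP-TF1 receptor, gave 12.81, 12.72, 12.57 and 12.92, and Otx1, a factor of forebrain and midbrain, gave 12.42, 12.59, 12.56 and 12.68. Irx5 (11.31 ± 0.17) and Irx3 (10.33 ± 0.21), which pattern more caudal neural tissue, En1 of the midbrain and hindbrain (8.54 ± 0.48), Nr2f2 (9.93 ± 0.65) and Lhx2 (8.75 ± 0.49) were further members. Pax6, Emx2, Otx2, Tbr1 and Six3 were detected on none.

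Hox genes, which mark the hindbrain, spinal cord and trunk and are silent in the normal forebrain, were detected in part. Of 39 genes, 8 were detected (20.5%), and all came from the B and C clusters. Hoxb7 gave 11.40, 11.04, 11.08 and 10.76, and no array fell under 10.76. Hoxb5 gave 9.94, 9.08, 9.79 and 9.31, Hoxb9 9.08, 9.73, 9.45 and 9.66 and Hoxc6 9.77, 8.95, 9.21 and 8.85. Hoxb6 was at 9.02 ± 0.38, Hoxb2 at 8.01 ± 0.59, Hoxb4 at 7.98 ± 0.23 and Hoxc9 at 7.95 ± 0.84. Hoxb3 and Hoxc10 passed on some arrays. None of the measured genes of the A and D clusters passed on any.

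**Figure D2:**
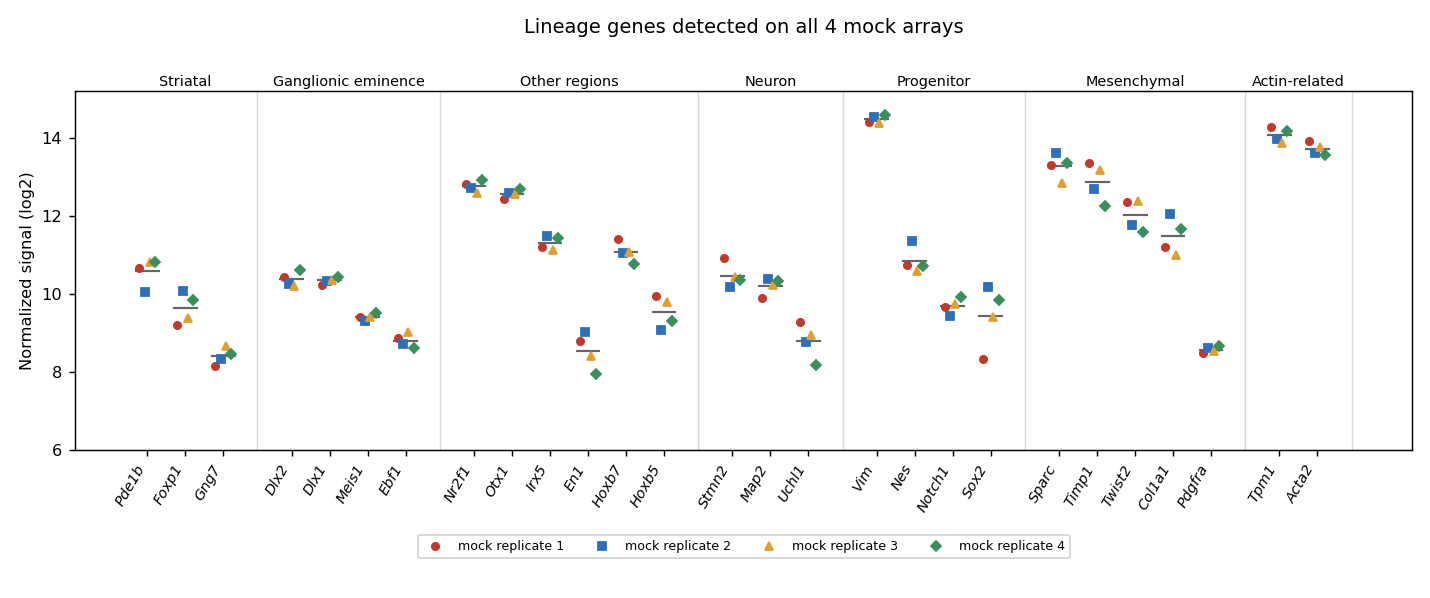
Normalized log2 signal of 27 lineage genes detected on all 4 mock arrays (y axis), 1 symbol per array and a bar at the mean. Dlx1, Dlx2 and Otx1 repeat closely between arrays, while Sox2 and En1 spread by over 1, and heights of different genes are not to be compared.

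The markers of neurons as a class fell below the background share. Of 29, 6 were detected (20.7%). Stmn2, a tubulin-binding protein of growing axons, gave 10.92, 10.16, 10.44 and 10.34, and Map2, the dendritic microtubule protein, gave 9.90, 10.38, 10.22 and 10.33 by 1 of 3 probes. Uchl1 (8.78 ± 0.46), a ubiquitin hydrolase, Ncam1 (8.68 ± 0.35), an adhesion protein, Eno2 (8.65 ± 0.26), the neuronal enolase, and Rtn1 (7.19 ± 0.26) were the others. Map2, Ncam1 and Rtn1 each had further probes that did not pass on all arrays.

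Tubb3, Dcx, Nefl, Nefh, Gap43, Mapt and Elavl3, which mark young neurons and their axons, were not detected on any array. The same was true of Snap25, Syt1 and Syp of the synaptic vesicle cycle, and of Gad1, Gad2 and Slc32a1, which make and load GABA. The vesicular glutamate transporters Slc17a6 and Slc17a7, Th of dopamine synthesis and Chat of acetylcholine synthesis were likewise detected on none. Nefm, Ina and Syn1 passed on some arrays.

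Neural progenitor markers stood near the background, with 9 of 19 (47.4%). Vim, the intermediate filament of progenitors and of mesenchyme, gave 14.40, 14.52, 14.37 and 14.58. Nes, nestin, gave 10.74, 11.35, 10.57 and 10.72, and both of its probes passed. Sox2, the factor that maintains neural stem cells, gave 8.32, 10.16, 9.41 and 9.84, with mock replicate 1 lower than each of the others by more than 1. Id1 (12.16 ± 0.38) and Id3 (10.46 ± 0.24), which hold back differentiation, Hes1 (10.08 ± 0.37), Cdh2 (9.98 ± 0.73), Notch1 (9.69 ± 0.21) and Sox9 (7.50 ± 0.44) were the others. Sox1, Sox3, Pax6, Fabp7, Hes5, Prom1, Msi1 and Neurog2 were detected on none.

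Mesenchymal genes were detected in a larger share than any other cell type list. Of 27, 21 passed (77.8%), and 16 (59.3%) when all probes of a gene were required. The lists were chosen with earlier results of these data known, so the order of their shares describes these lists only. Sparc, a collagen-binding matrix protein, gave 13.31, 13.60, 12.85 and 13.34. Timp1, an inhibitor of matrix proteases, gave 13.34, 12.69, 13.18 and 12.24, and Fstl1, a secreted glycoprotein, gave 12.12, 13.18, 11.83 and 12.10. None of these genes fell under 11.83 on any array.

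Collagen genes of the list were Col5a1 (12.03 ± 0.29), Col6a1 (11.67 ± 0.4), Col1a1 (11.48 ± 0.47), Col3a1 (7.85 ± 0.79) and Col6a2 (7.44 ± 0.64). Col1a1, the main fibrillar collagen, gave 11.21, 12.04, 10.99 and 11.67. Its partner chain Col1a2 was detected on none of the arrays and Col5a2 on 3. The enzymes that crosslink collagen were present, Loxl1 at 11.49 ± 0.29 and Lox at 11.19 ± 0.41, as was Fbn1 of microfibrils at 10.62 ± 0.31.

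The mesenchymal transcription factors were represented by Twist2, which gave 12.34, 11.76, 12.38 and 11.59, and by Zeb1, which gave 11.39, 11.53, 11.21 and 11.57. Prrx1 of limb and head mesenchyme was at 9.93 ± 0.22, Twist1 at 9.33 ± 0.36 and Snai1 at 8.63 ± 0.65. S100a4, also called fibroblast-specific protein, gave 12.10, 11.43, 11.80 and 11.25. The fibroblast surface protein Thy1 and the matrix genes Lum and Postn were detected on none.

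Genes shared by mural and smooth muscle cells were detected in part. Of 16, 8 were detected (50%). Those of the actin filament were Tpm1 (14.07 ± 0.18), Acta2 (13.71 ± 0.17 on the brightest of the 3 probes listed under that symbol, all detected), Tpm2 (12.55 ± 0.3), Cnn2 (10.47 ± 0.35), Cald1 (10.11 ± 0.74) and Tagln (7.41 ± 0.5). Acta2, the smooth muscle actin of contractile and of activated fibroblast-like cells, gave 13.92, 13.60, 13.75 and 13.56, and the probe listed as 0610041G09Rik, given above among the brightest, was at 14.39 ± 0.071. The surface proteins Mcam (8.44 ± 0.51, with all 3 probes) and Cspg4 (7.17 ± 0.34), which pericytes share with other cells, were detected as well. Of the other members, Myh11 and Cnn1 of contractile filaments, the intermediate filament gene Des, and Rgs5, Kcnj8, Abcc9, Anpep and Notch3, which are used as pericyte or mural markers, were detected on none.

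Other cell types of brain left few marks. Of 14 genes of microglia and macrophages 0 passed on any array, and of 13 epithelial genes, including Cdh1 and the keratins Krt5, Krt8 and Krt18, likewise 0. Of the astrocyte markers, 2 of 12 (16.7%) passed, the gap junction gene Gja1 with signals of 13.68, 13.95, 13.70 and 13.93 and Acsbg1 at 7.27 ± 0.15 by 1 of 2 probes. Gja1 is not limited to astrocytes and is known in fibroblasts. Gfap, Aqp4, Aldh1l1 and S100b were detected on none.

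Of the oligodendrocyte lineage, 1 of 11 (9.09%) passed, Cspg4 again, and Olig1, Olig2 and Mbp did not. Of the endothelial genes, 2 of 14 (14.3%) passed, the VEGF receptor Flt1 with 10.76, 11.08, 10.85 and 10.73 by 1 of 2 probes, and Egfl7 at 9.15 ± 0.76 by 1 of 3. Pecam1, Cdh5, Kdr and Tie1, which define endothelium, did not. The leptomeningeal list gave 2 of 11 (18.2%), the forkhead genes Foxc1 at 9.08 ± 0.24 and Foxc2 at 8.31 ± 0.23. The list for Schwann cells and neural crest gave 2 of 7 (28.6%), Pmp22 at 10.67 ± 0.15 and Tfap2a at 10.29 ± 0.14, and Foxd3 did not pass. Side by side, the lists gave 3 of 21 (14.3%) for medium spiny neurons, 7 of 22 (31.8%) for the embryonic precursor and 21 of 27 (77.8%) for mesenchymal cells. These lists were chosen with earlier results of these data known. Whether single cells carried both the forebrain and the mesenchymal genes, or different cells of the culture did, cannot be told apart in RNA of whole cultures.

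Most genes of cell division were detected. Of 39 genes of the cell cycle and of large T targets, 34 were detected (87.2%). The replication licensing genes were at 13.73 ± 0.14 for Mcm4, 13.36 ± 0.21 for Mcm5 and 13.27 ± 0.34 for Mcm6. Ccnd1, the cyclin of the first growth phase, gave 14.41, 13.45, 13.83 and 13.40, highest on mock replicate 1. Cdk1 (13.23 ± 0.22), Cdk2 (13.18 ± 0.22), Cdc20 (13.15 ± 0.17) and Ccnb1 (13.13 ± 0.17) cover the later phases.

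Genes of the p53 and Rb pathways, which large T blocks, were detected as RNA. Trp53, the p53 gene, gave 11.92, 12.27, 11.59 and 11.73, and Mdm2, its ubiquitin ligase and target, was at 12.85 ± 0.35. Cdkn1a, the p21 gene, gave 11.80, 11.18, 11.54 and 11.32, and Cdkn2a, which encodes p16 and Arf, gave 12.35, 11.35, 11.81 and 11.37. Rb1 was at 9.75 ± 0.16, its relative Rbl1 at 10.07 ± 0.081 and E2f1 at 11.82 ± 0.19. Rbl2, Cdkn1b, Ccnb2, Bub1 and the telomerase gene Tert were detected on none.

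Both Xist, the RNA that silences 1 X chromosome in female cells, and a Y-linked symbol were found. Xist gave 8.85, 9.83, 9.77 and 9.72 and both of its probes passed. Of the Y-linked genes, Ddx3y was at 8.15 ± 0.45 by 1 of 3 probes, and Eif2s3y, Kdm5d and Uty passed on none. At the wider limit of 0.05, Uty passed on every array, and Eif2s3y and Kdm5d did not. Ddx3x, the X-linked gene close in sequence to Ddx3y, was at 12.16 ± 0.37, so the source of the Ddx3y signal is uncertain.

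The starts of the detected genes differed in sequence from those of the undetected. A promoter window of 300 bases, from 250 before to 50 after the start in RefSeq on GRCm38.p6, was matched by symbol for 13425 genes, and the dinucleotide CG was counted on it. The median was 22 for the 5685 genes detected on all 4 arrays, 19 for those detected on some, and 6 for the 6954 detected on none. A count of 10 or more was held by 89.3% of the first and 39.3% of the last. It was held by 62.6% of all 13425 matched genes, and by 43.9% of all 27025 promoters in the table. The letters TATAAA were searched on the gene's strand in the last 50 bases before the start. They were held by 1.23% of the detected and 5.18% of the undetected genes, against 3.32% of all matched genes and 2.88% of all promoters. Among the detected genes the share was 2.49% at a mean signal of 12 and over and 0.939% under 8. Matches of letters are a description, and no binding was measured.

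**Figure D3:**
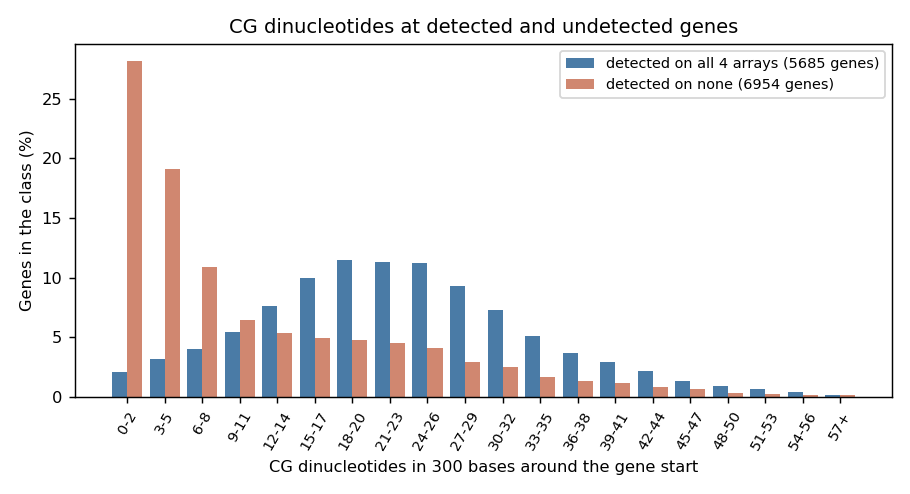
Distribution of the number of CG dinucleotides in the 300 bases around the gene start (x axis, bins of 3, the last bin open) as the share of genes in each class (y axis, percent), for 5685 genes detected on all 4 mock arrays and 6954 detected on none. The detected genes centre on a median of 22 and the undetected on 6, and both classes span the whole range.

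The 100 bases before the start are shown for 8 genes picked as examples, in lower case with CG and TATAAA in capitals. The first pair are the detected forebrain genes, the next are striatal genes not detected at 0.01, of which Drd2 was under 0.05 on all arrays, then 3 bright mesenchymal or receptor genes, and last an undetected liver gene.
Dlx1, chr2:71529345-71529444, plus strand: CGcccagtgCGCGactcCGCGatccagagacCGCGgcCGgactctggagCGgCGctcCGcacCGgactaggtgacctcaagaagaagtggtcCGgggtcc
Dlx2, chr2:71546755-71546854, minus strand: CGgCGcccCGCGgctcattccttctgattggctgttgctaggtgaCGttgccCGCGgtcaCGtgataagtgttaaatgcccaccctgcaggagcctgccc
Drd2, chr9:49340303-49340402, plus strand: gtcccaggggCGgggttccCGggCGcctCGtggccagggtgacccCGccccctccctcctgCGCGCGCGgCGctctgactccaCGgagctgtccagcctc
Rgs9, chr11:109298182-109298281, minus strand: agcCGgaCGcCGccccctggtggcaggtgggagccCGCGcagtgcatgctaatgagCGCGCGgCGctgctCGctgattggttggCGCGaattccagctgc
Vim, chr2:13574211-13574310, plus strand: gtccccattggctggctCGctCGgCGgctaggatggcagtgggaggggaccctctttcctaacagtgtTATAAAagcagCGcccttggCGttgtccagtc
Spp1, chr5:104435011-104435110, plus strand: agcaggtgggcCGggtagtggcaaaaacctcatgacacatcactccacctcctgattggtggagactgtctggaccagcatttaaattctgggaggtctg
Il1rl1, chr1:40429470-40429569, plus strand: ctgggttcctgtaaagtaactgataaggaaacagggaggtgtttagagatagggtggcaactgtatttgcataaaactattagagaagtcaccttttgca
Alb, chr5:90460770-90460869, plus strand: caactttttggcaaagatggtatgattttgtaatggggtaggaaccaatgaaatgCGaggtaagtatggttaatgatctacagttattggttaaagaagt

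These windows, in GRCm38.p6, held 13 CG in Dlx1, 8 in Dlx2, 11 in Drd2 and 12 in Rgs9. Both the detected pair and the undetected pair were rich in CG, and over the medium spiny neuron list the median in 300 bases was 20 for 3 detected and 19 for 14 undetected genes. Vim held 5 and a TATAAA. Spp1 held 1, Il1rl1 0 and Alb 1, although Spp1 and Il1rl1 were among the bright genes and Alb was detected on none. The difference between all detected and all undetected genes therefore did not extend to each gene or list.

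The lists of receptors differed in the share detected, from 5.88% to 42.9%. Receptor tyrosine kinases bind growth factors outside the cell and phosphorylate tyrosine inside it, and 16 of 52 (30.8%) were detected. Axl, the receptor of Gas6, gave 13.91, 14.02, 14.05 and 14.08, with little spread. Ryk, a Wnt receptor without kinase activity, gave 13.05, 13.42, 12.99 and 13.18 and all 3 of its probes passed. Egfr, the EGF receptor, gave 10.51, 10.87, 10.83 and 11.14 by 1 of 4 probes.

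Epha2, an ephrin receptor, gave 9.57, 11.10, 9.79 and 10.60, and Ddr1, a collagen receptor, was at 10.24 ± 0.34. The PDGF receptors were dim on their probes and even between arrays, Pdgfra at 8.49, 8.61, 8.52 and 8.65 and Pdgfrb at 8.21, 8.77, 8.32 and 8.47. Fgfr1 gave 7.62, 9.51, 7.72 and 8.52 and Igf1r 7.19, 9.06, 8.16 and 8.46, both highest on mock replicate 2. Ror2 was at 8.81 ± 0.26. The neurotrophin receptors Ntrk2 and Ntrk3, the GDNF receptor Ret and the insulin receptor Insr were detected on none of the arrays, and Met, the HGF receptor, passed on mock replicates 2, 3 and 4.

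Of the receptors of the TGF-beta family, which are serine and threonine kinases, 6 of 14 (42.9%) were detected. The TGF-beta receptors Tgfbr2 and Tgfbr1 gave 11.24, 11.46, 11.43 and 11.74 and 10.92, 11.28, 11.28 and 11.35. The BMP and activin receptors Acvr1 (10.69 ± 0.19), Bmpr1a (10.59 ± 0.31) and Acvr2b (8.19 ± 0.4) and the coreceptor Tgfbr3 (7.36 ± 0.3) were the others. Bmpr2 and Acvr2a passed on some arrays.

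Of the cytokine receptors, 12 of 30 (40%) were detected. Tnfrsf12a, the receptor of TWEAK, gave 13.39, 12.85, 13.09 and 12.73 and Il11ra1, of interleukin 11, 11.02, 10.76, 10.99 and 10.88. The growth hormone receptor Ghr was at 9.88 ± 0.2, the interferon gamma receptor chains Ifngr1 and Ifngr2 at 9.77 ± 0.15 and 7.90 ± 0.35, and Tnfrsf1a of TNF at 8.71 ± 0.65. The shared chain Il6st, which carries the signal of interleukin 6 relatives, gave 8.45, 8.67, 8.58 and 8.55, and Osmr of oncostatin M 8.62, 8.54, 8.51 and 8.51. Lifr, Il6ra and Cntfr, which pair with Il6st for LIF, interleukin 6 and CNTF, were detected on none.

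Receptors for transmitters were nearly without signal. Of 51 G protein coupled receptors for dopamine, acetylcholine, serotonin, glutamate, opioids and other striatal transmitters, 3 were detected (5.88%), with means up to 8.23. Npy1r, of neuropeptide Y, gave 7.86, 8.61, 8.21 and 8.24. Adora2b, the low-affinity adenosine receptor, gave 8.53, 7.81, 8.28 and 7.99. All 5 dopamine receptors, all 5 muscarinic receptors and the 3 opioid receptors passed on no array at 0.01. Adora1 passed on mock replicates 2, 3 and 4.

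Channels opened by transmitters were as sparse, with 3 of 50 (6%). Chrnb1, a nicotinic subunit of muscle, gave 10.30, 9.95, 10.20 and 10.21, the ATP channel P2rx4 was at 9.07 ± 0.38 and the kainate subunit Grik5 at 7.96 ± 0.6. None of the measured GABA-A subunits or NMDA subunits passed on any array. Of 14 alpha subunits of voltage-gated sodium and calcium channels 0 passed on all 4 arrays and Cacna1c on 1.

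Of the receptors for lipids, peptides, chemokines and Wnt proteins, 14 of 55 (25.5%) were detected. F2r, the thrombin receptor PAR1, gave 14.12, 14.22, 14.10 and 14.26, and its relatives F2rl1, F2rl2 and F2rl3 were detected on none. Receptors of lysophosphatidic acid that passed were Lpar6 at 11.36 ± 0.14, Lpar1 at 10.21 ± 0.12, Lpar4 at 9.83 ± 0.14 and Lpar2 at 7.30 ± 0.17. The Wnt receptors Fzd6 (10.64 ± 0.097), Fzd7 (10.60 ± 0.42), Fzd5 (10.46 ± 0.36), Fzd2 (9.70 ± 0.74), Fzd3 (7.77 ± 0.11) and Fzd1 (7.52 ± 0.39) passed, and so did S1pr2 of sphingosine 1-phosphate (8.69 ± 0.22). Of the same families, Lpar3, Fzd4, Fzd8, Fzd10, S1pr1, S1pr3 and S1pr4 were detected on none. The endothelin receptors Ednra and Ednrb and the chemokine receptors Cxcr4 and Ackr3 were also detected on none.

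Of the nuclear receptors, which are transcription factors bound by hormones and lipids, 14 of 47 (29.8%) were detected. After Nr2f1, already given, the brightest were Rxrb (10.98 ± 0.2), a partner of many others, Nr2f6 (10.83 ± 0.33), the clock repressors Nr1d1 (10.68 ± 0.077) and Nr1d2 (10.65 ± 0.26) and the oxysterol receptor Nr1h2 (10.44 ± 0.24). Pparg, of fat cells, was at 9.95 ± 0.33 by 1 of 3 probes, and Rarg, the one retinoic acid receptor on all arrays, at 9.58 ± 0.19. The steroid receptors Esr1, Esr2 and Pgr passed on none, and the glucocorticoid receptor Nr3c1 on mock replicates 2, 3 and 4.

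**Figure D4:**
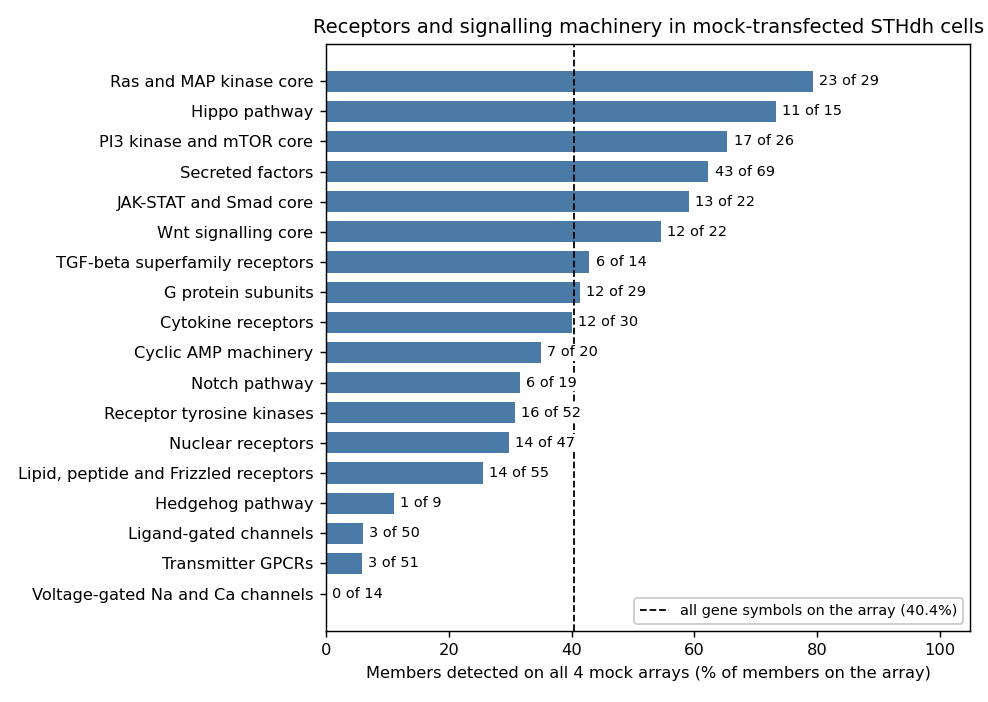
Share of the members of 18 lists of receptors, ligands and signalling proteins detected on all 4 mock arrays, in percent of the members on the array, with counts beside the bars and the share of all genes dashed (40.4%). The kinase cores and the secreted factors lie above the line, and transmitter receptors and channels lie at 6.0% or less.

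Of the secreted growth factors and cytokines, 43 of 69 (62.3%) were detected. Spp1, osteopontin, gave 12.96, 12.74, 12.98 and 12.64, and Pdgfa, a growth factor of mesenchyme and oligodendrocyte precursors, 12.69, 12.37, 12.22 and 12.09. Grem1, a BMP antagonist, gave 11.96, 12.48, 12.07 and 12.35 and the chemokine gene Cxcl12 12.07, 11.98, 12.26 and 12.16. Inhba, the activin chain, was at 11.66 ± 0.2.

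Bdnf, the neurotrophin that striatal neurons receive from the cortex, gave 11.89, 11.85, 11.72 and 11.88 by 1 of its 3 probes. Gdnf gave 10.59, 10.94, 10.93 and 10.99 by 1 of 2 probes, and Cntf was at 10.73 ± 0.31 by 1 of 2. Ntf3, Ntf5 and Nrtn passed on no array. Vegfa (10.95 ± 0.11), Fgf10 (11.12 ± 0.084), Fgf7 (10.74 ± 0.19), Csf1 (11.09 ± 0.11), Hbegf (11.02 ± 0.33) and Edn1 (10.96 ± 0.2) were further secreted factors. Fgf2, Hgf, Lif and Il6 were detected on none.

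Ligands and receptors were then read as pairs. Of 35 pairs with both genes on the array, 11 had both detected, 17 the ligand only, 2 the receptor only and 5 neither. Singly, 62.3% of the secreted factors and 30.8% of the receptor tyrosine kinases were detected, against 40.4% of all genes. Some genes stand in several pairs. Whether the pair counts differ from what such single shares would give was not tested. The complete pairs were Pdgfa and Pdgfc with Pdgfra, Pdgfb with Pdgfrb, Igf1 and Igf2 with Igf1r, Hbegf with Egfr, Gas6 with Axl, Tgfb1 with Tgfbr2, Il11 with Il11ra1, Jag1 with Notch1 and Wnt5a with Ror2. In the pair of Gas6 and Axl, the ligand was at 7.48 ± 0.32.

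In 13 of the 17 pairs with the ligand only, the receptor passed on no array. They include Bdnf with Ntrk2, Gdnf with Ret, Csf1 with Csf1r, Vegfa with Kdr, Edn1 with both endothelin receptors, Cxcl12 with Cxcr4 and with Ackr3, Ccl2 with Ccr2 and Ptn with Alk. Not every receptor of a ligand was paired, and Flt1, the other VEGF receptor named above, was detected. For Bdnf and Gdnf, RNA of the ligand was found and that of the paired receptor measured here was not, at the sensitivity of these probes. The receptor only was found for Fgf2 with Fgfr1 and Dll1 with Notch1.

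The signalling proteins under the receptors were next. Of the Ras and MAP kinase core, 23 of 29 (79.3%) were detected, led by Nras (13.35 ± 0.069), Map2k3 (13.30 ± 0.089), the adaptor Shc1 (13.10 ± 0.15), the GTPase activator Rasa1 (12.83 ± 0.3) and Map2k2 (12.60 ± 0.079). Mapk3, the ERK1 gene, was at 9.30 ± 0.24. Mapk10, the JNK gene of neurons, passed on none, while Mapk9 (11.27 ± 0.23) and Mapk8 (8.81 ± 0.14) passed on all.

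Of the PI3 kinase and mTOR core, 17 of 26 (65.4%) were detected. Rheb, the activator of mTOR, was at 13.00 ± 0.13, the mTOR substrate Eif4ebp1 at 12.76 ± 0.45, Mlst8 at 11.74 ± 0.22 and Rictor at 11.04 ± 0.24. Of the Akt kinases, Akt1 and Akt2 passed on no array. Irs2 gave 9.39, 9.86, 11.50 and 10.70, which spread by 2.10, and Irs1 passed on none.

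Of the JAK-STAT and Smad core, 13 of 22 (59.1%) were detected, among them Smad4, the shared Smad (12.54 ± 0.078), Smad1 (11.61 ± 0.24) and Smad5 (11.51 ± 0.22) of the BMP branch, Smad2 (9.48 ± 0.24) and Smad3 (9.15 ± 0.49) of the TGF-beta branch, and Stat3 (9.99 ± 0.35). The Hippo pathway, which passes cell contact and stretch to the Yap1 coactivator, gave 11 of 15 (73.3%). Beside Ctgf, its target genes Cyr61 and Ankrd1 gave 12.29, 12.20, 11.87 and 12.17 and 11.59, 11.47, 11.80 and 11.46. The Tead2 factor was at 12.31 ± 0.32, Yap1 at 9.69 ± 0.21, and the upstream parts Sav1 and Stk4 at 12.33 ± 0.17 and 11.38 ± 0.32.

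The Wnt core gave 12 of 22 (54.5%), with Ctnnb1, beta-catenin, at 12.91 ± 0.14 and Dvl1 at 11.72 ± 0.3, while the target gene Axin2 was detected on none. The Notch pathway gave 6 of 19 (31.6%), with the target genes Hey1 (11.10 ± 0.1) and Hes1 (10.54, 10.15, 9.65 and 9.99) and the ligand Jag1 (7.43 ± 0.49). Rbpj, the DNA-binding protein of this pathway, passed on no array. Of the Hedgehog pathway 1 of 9 (11.1%) passed, the transducer Smo at 10.36 ± 0.17, and the target genes Ptch1 and Hhip did not.

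The cyclic AMP pathway, through which dopamine and adenosine act in medium spiny neurons, was detected in part. Of its list, 7 of 20 (35%) were detected, below the 40.4% of all genes. The kinase subunits detected were Prkacb (13.24 ± 0.18), Prkaca (11.95 ± 0.27) and Prkar1a (12.84 ± 0.2), and the phosphatase Ppp1ca, which DARPP-32 inhibits in neurons, was at 13.70 ± 0.17. Adcy6 (10.14 ± 0.35), Adcy9 (7.54 ± 0.29) and Adcy7 (7.10 ± 0.18) were the cyclases detected, and Adcy5, the striatal form, was not. The regulatory subunit Prkar2a and the transcription factors and coactivator of the pathway, Creb1, Atf1 and Crebbp, were detected on none, and Prkar1b, Prkar2b and Crem on some arrays. Of the G protein subunits 12 of 29 (41.4%) passed, Gnas at 11.52 ± 0.31, Gnai2 at 11.64 ± 0.88 and Gna11 at 11.63 ± 0.13, while Gnal and Gnao1 of neurons passed on none.

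Huntingtin and its partners gave 10 of 15 (66.7%). The huntingtin gene Htt gave 7.27, 7.68, 7.78 and 7.88, near the lower end of the detected range on its probe. Hip2, a ubiquitin-conjugating enzyme, was at 12.12 ± 0.29, Ncor1 at 10.85 ± 0.48, Hip1 at 8.12 ± 0.54 and Hap1 at 7.32 ± 0.43 by 1 of 4 probes. Rest, the repressor of neuronal genes, passed on no array. Of 23 imprinted genes, 8 were detected (34.8%), with Grb10 at 13.05 ± 0.24, Impact at 12.68 ± 0.3 and Ndn at 12.29 ± 0.14, and H19, Dlk1 and Peg3 were detected on none.

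Some gene families were counted by their symbols, a choice made after the values were seen. Of 72 mitochondrial ribosomal genes 66 were detected (91.7%), of 41 proteasome genes 37 (90.2%), and of 63 ribosomal genes 57 (90.5%). The share of all genes was 40.4%. Of 36 collagen genes 12 were detected (33.3%), below the share of all genes. Col4a1 of basement membranes at 12.27 and Col18a1 at 11.85 were among them, beside those named. Of 79 potassium channel genes and their partners 6 passed (7.59%), of 36 keratins 1 (2.78%), and of 29 interleukins 1 (3.45%).

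The 4 arrays were alike in outline. They detected 10121 to 10784 probes each, and their pairwise correlation over detected probes was from 0.939 to 0.973, with replicates 1 and 3 (0.971) and replicates 2 and 4 (0.973) the closest. The median SD of a detected probe was 0.278, and it fell from 0.315 at signals between 6 and 8 to 0.203 above 12. An SD over 0.5 was found for 1361 probes (14.1%).

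Mock replicate 1 stood somewhat apart. Of the 659 probes detected on 3 arrays, 427 failed on replicate 1 and 48 to 102 on each of the others, and its dimmest detected signal was 139 before normalization against 69.7 to 102 on the others. Of the 100 probes of largest SD with a mean of at least 8, 61 were farthest from their mean on replicate 1. The genes named above as detected on replicates 2, 3 and 4 alone, Pde10a, Met, Adora1 and Nr3c1 among them, belong to this set, and the part of the array in their absence was not tested.

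The largest SD belonged to Thbs1, thrombospondin, a matrix protein that activates TGF-beta, with signals of 7.17, 10.21, 10.08 and 9.90. The next were Dusp10, a phosphatase of JNK and p38, with 8.84, 10.17, 7.42 and 7.75, and Pym1, listed under an older symbol, with 9.79, 9.18, 7.47 and 7.54. Med15, Atad2, Vkorc1, Selenow, Baz2a, Cpsf7 and Slc25a36 followed, with a span between arrays of 2.18 to 2.72. Thbs1, Atad2, Cpsf7 and Slc25a36 were low on replicate 1, Med15 and Baz2a high on replicate 2, and Vkorc1 and Selenow low on replicate 4.

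**Figure D5:**
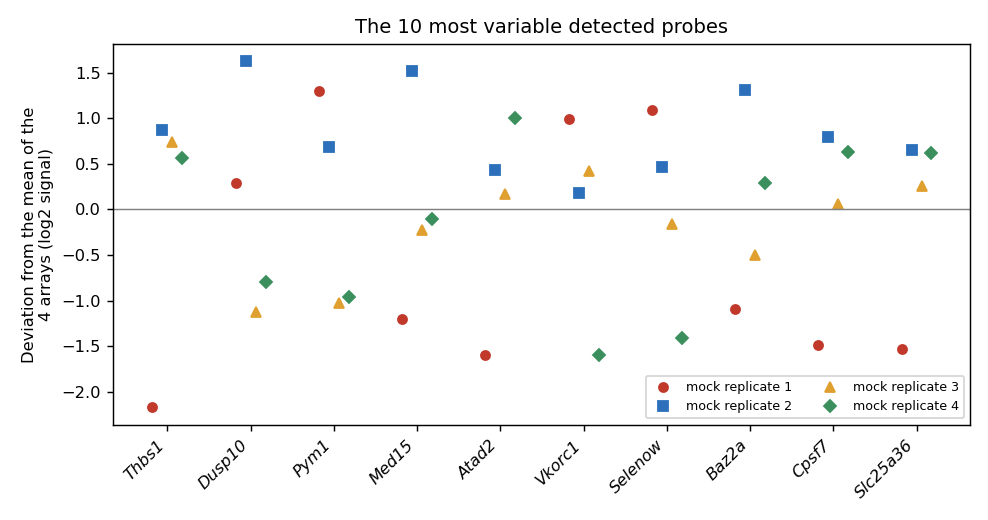
Deviation of each mock array from the mean of the 4 (y axis, log2 signal) for the 10 detected probes of largest SD with a mean signal of at least 8. Each symbol is 1 array, and replicate 1 is farthest from the mean for Thbs1, Pym1, Atad2, Cpsf7 and Slc25a36.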

How the data were processed

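Total RNA of 4 mock-transfected samples was hybridized to Illumina MouseRef-8 v2 arrays. The values deposited by the authors were, for each probe and array, a mean bead intensity exported from GenomeStudio with background subtracted and no scaling between arrays, and a detection p-value. From the deposited intensities of the 4 mock arrays alone, signals were quantile-normalized with limma (version 3.58.1, in R 4.3.3), set to at least 1 and transformed to log2, and the normalization was tested on simulated data. Between 30.6% and 31.6% of signals per array were at or below 0 before this step, and these carry no order. Array median signals ran from 31.6 to 53.9, and no pair of arrays shared a probe's exact signal. A gene was detected where at least 1 probe had a deposited p-value under 0.01 on all 4 arrays, and was represented by its brightest probe listed under the matched symbol. The 40 gene lists and the members were chosen with earlier results of these data known. Of 1001 listed genes, 942 matched a symbol of the array, 69 of them through an older symbol, and the other 59 were not analysed here. Genes were named as the 25 brightest probes, the 10 of largest SD with a mean of at least 8, up to 6 brightest members of each list with its defining members, and ligand and receptor pairs. Further members named for their role were chosen after their values were seen. Some genes under these rules are not reported here. Samples were grouped by their titles, and precision is limited by 4 arrays. Promoter windows and coordinates came from RefSeq on GRCm38.p6.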

Additional observations from a re-analysis of the deposited data

Results flagged for a closer look

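In each named gene and array measure, the lowest or highest of the 4 mock arrays was checked for a gap to its nearest neighbour that takes up most of the range of the 4. About 1 in 20 such groups of 4 is set apart by chance, and 9 of 238 were set apart here, 8 of them genes. Over all 9656 detected probes the count was 411 (4.26%), with 151 on mock replicate 1, 123 on replicate 2, 58 on replicate 3 and 79 on replicate 4.

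In log2 units the widest of these gaps belonged to Thbs1, at 7.17 on replicate 1 against 9.90 to 10.21 on the others, a gap of 0.899 of the range. Replicate 1 was also lowest for Xist (8.85 against 9.72 to 9.83, gap 0.888), Gdnf (10.59 against 10.93 to 10.99, gap 0.872) and Mapk9 (10.92 against 11.36 to 11.42, gap 0.868). The number of probes detected on the 3 other arrays and missed on 1 was 427 for replicate 1 against 48 to 102, a gap of 0.858.

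Replicate 3 was lowest for Actb (14.22 against 14.58 to 14.61, gap 0.927) and Lhx2 (8.02 against 8.94 to 9.07, gap 0.871). Replicate 4 was lowest for Id3 (10.10 against 10.56 to 10.60, gap 0.933) and Rps20 (14.13 against 14.41 to 14.44, gap 0.907).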

How the results depend on the processing

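Detection counts depended most on how several probes of a gene were counted. Genes detected numbered 7327, and 7359 to 7542 when each mock array was left out in turn, 7698 on at least 3 of 4 arrays, 8086 at a detection limit of 0.05 and 5735 when all probes of a gene were required. At 0.05 the count for medium spiny neuron markers rose from 3 to 5 of 21, with Drd2 and Pde10a added. That for receptors of smell rose from 1 to 6 of 1207. When all probes were required, the count for neuron markers fell from 6 to 3, that for reference genes from 13 to 8, that for TGF-beta family receptors from 6 to 3, and those for endothelial and for Schwann cell markers from 2 to 0. Of the 40 lists, 34 stayed within 1.5 times at 0.05, 28 when all probes were required, and all 40 with an array left out or with the brightest probe alone. Without normalization the median SD was 0.432 in place of 0.278. The ribosomal symbols among the 100 brightest probes numbered 21, and 19 to 27 over these settings and with an array left out. Leaving out mock replicate 2 moved 42 of 235 named signals by over 1 SD, all upward, and leaving out replicate 1 moved 25, all downward, since the level to which the arrays are normalized changed, with the median of detected probes at 10.07 and 9.82 in place of 9.93. No paired analysis was possible because 1 group was described and no test was made. The number of arrays, the detection limit of each probe and the symbols of an old array design limit these values.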
